A study of Homo sapiens with 4 samples.

Results

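The 33 genes described here encode enzymes of cholesterol and fatty acid synthesis together with the proteins that control them, and their RNA was measured in HT-29 cells with and without Myc-TRIM40. They were taken by gene symbol from a named list out of 27685 genes, and the list was chosen by knowledge of how RNA levels differed between Myc-TRIM40 and control cells in these same libraries. Differences between Myc-TRIM40 and control are therefore given below as a description. Calls by edgeR and other fits on this contrast are listed further below, and nothing is read from them. All 33 genes were found in both experiments.

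Sterol regulatory element-binding proteins (SREBPs) are transcription factors made as membrane precursors in the endoplasmic reticulum. When sterols are scarce, the escort protein SCAP carries the precursor to the Golgi, where it is cut and releases a fragment that enters the nucleus and switches on genes of lipid synthesis. When sterols are plentiful, INSIG proteins hold SCAP back. SREBF2 is best known for driving cholesterol synthesis and SREBF1 for driving fatty acid synthesis, and colon cancer cells use both pathways to build membranes.

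HT-29 is an established human colon cancer cell line, and TRIM40 is a RING-type E3 ubiquitin ligase. The control libraries came from HT-29 cells labelled WT in genotype, which the study describes as carrying the control vector, and the other libraries from HT-29 cells labelled as overexpressing TRIM40, from a Myc-tagged human cDNA in a pMSCV retroviral vector. No treatment beyond the making of the lines is named for either, and the study describes puromycin selection of cells after retroviral transduction. Whether the stable lines were clones or pools is not stated in the sources used here. Each of 2 independent experiments gave 1 control and 1 Myc-TRIM40 library.

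The 4 libraries held between 60954602 and 67424698 reads. TRIM40 had 0 reads in both control libraries and, with Myc-TRIM40, 272646 reads in experiment 1 and 110665 in experiment 2. Of 12 colon epithelial markers, 11 had at least 1 FPKM (reads scaled by transcript length and library size) in every library, and the exception was CDX1 at 0.323 to 0.414 FPKM. Of 9 markers of other cells, 4 had no reads and the highest value was 2.61 FPKM, for CD14. The control library of experiment 2 stood apart from the other 3, because short transcripts were higher and long transcripts lower in it. Within experiment 2 the log2 ratio of Myc-TRIM40 to control rose with transcript length, with a Spearman correlation of 0.68 across 11800 genes with a mean of at least 1 FPKM, against 0.08 in experiment 1 (genes are not independent replicates, and each set of ratios shares 1 pair of libraries). Ratios from experiment 2 are therefore also given after the trend on transcript length was taken out, and those of experiment 1, which did not use that library, stand beside them.

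The promoters of 4 of the genes are shown because HMGCS1 and SCD were the pair past 1.5-fold in both experiments, INSIG1 is a classical SREBP target and SREBF2 was the only one of the genes with the sterol regulatory element core searched for. Each line gives the 250 bases before a RefSeq transcription start in GRCh38.p14, 5′ to 3′ in the direction of transcription. Capitals mark CCAAT boxes, which NF-Y binds and which read ATTGG on the other strand, and in SREBF2 also the sterol regulatory element core.

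HMGCS1, chr5:43313413-43313662, minus strand: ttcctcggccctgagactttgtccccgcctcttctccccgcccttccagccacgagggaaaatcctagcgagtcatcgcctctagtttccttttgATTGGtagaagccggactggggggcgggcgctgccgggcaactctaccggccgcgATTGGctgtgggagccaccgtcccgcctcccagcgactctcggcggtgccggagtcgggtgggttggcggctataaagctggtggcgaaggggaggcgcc
SCD, chr10:100346983-100347232, plus strand: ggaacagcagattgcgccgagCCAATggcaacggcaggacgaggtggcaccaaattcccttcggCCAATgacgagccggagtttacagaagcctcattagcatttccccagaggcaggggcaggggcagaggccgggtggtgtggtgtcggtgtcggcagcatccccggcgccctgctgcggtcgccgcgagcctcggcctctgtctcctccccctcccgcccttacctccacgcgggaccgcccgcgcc
INSIG1, chr7:155297628-155297877, plus strand: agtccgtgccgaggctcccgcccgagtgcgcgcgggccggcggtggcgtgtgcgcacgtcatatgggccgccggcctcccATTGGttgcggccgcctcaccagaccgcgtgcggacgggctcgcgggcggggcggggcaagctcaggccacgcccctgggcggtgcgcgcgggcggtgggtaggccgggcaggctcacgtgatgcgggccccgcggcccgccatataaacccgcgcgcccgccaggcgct
SREBF2, chr22:41832855-41833104, plus strand: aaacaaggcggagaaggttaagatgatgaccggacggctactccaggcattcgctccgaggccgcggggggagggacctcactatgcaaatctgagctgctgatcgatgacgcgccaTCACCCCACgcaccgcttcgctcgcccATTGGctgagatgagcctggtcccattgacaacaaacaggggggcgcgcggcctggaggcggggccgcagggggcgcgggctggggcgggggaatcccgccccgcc

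Promoter windows were found for 29 of the 33 genes, and none was printed for ACAT2, FDFT1, SQLE and FASN. Among the 29, a CCAAT box lay in the 250 bases before a start of 20 genes (69.0%), against 37.0% of 27305 genes with a window. The SP1 letters GGGCGG were present in 27 of the 29 (93.1%), all but LBR and NSDHL, against 46.2% of all genes. The comparison genes include genes not expressed in these cells. Motif shares among expressed genes alone were not computed, so these differences are not read as a trait of the 33 genes. The core TCACNCCAC was present in 1 of the 29, SREBF2, at position -133 from the start, and in 1.09% of all genes. Both strands were searched, none of the 3 motifs contains another, and a match is a string of letters rather than a known binding site. Only this form of the core was searched, and only in these windows. A gene without a match may therefore still have a sterol regulatory element. In HMGCS1 the CCAAT boxes began at positions -155 and -100 in 1 of 2 windows, and in SCD at -229 and -186.

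Levels of the genes, in FPKM and so per transcript length, ran over more than 3 orders of magnitude. SCD, which makes monounsaturated fatty acids, had the highest mean over the 4 libraries at 232 FPKM, followed by SQLE at 142, FDPS at 129 and FASN at 107. FADS1 and FADS2, which desaturate polyunsaturated fatty acids, were the lowest at 0.646 and 0.0684 FPKM, FADS2 with only 8 to 26 reads per library. The other 31 genes had a mean of at least 1 FPKM. The genes took 0.577% and 0.731% of the reads in the control and Myc-TRIM40 libraries of experiment 1, and 0.486% and 0.653% in experiment 2. In such bulk samples fewer expressing cells and less RNA per cell cannot be told apart.

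**Figure D1:**
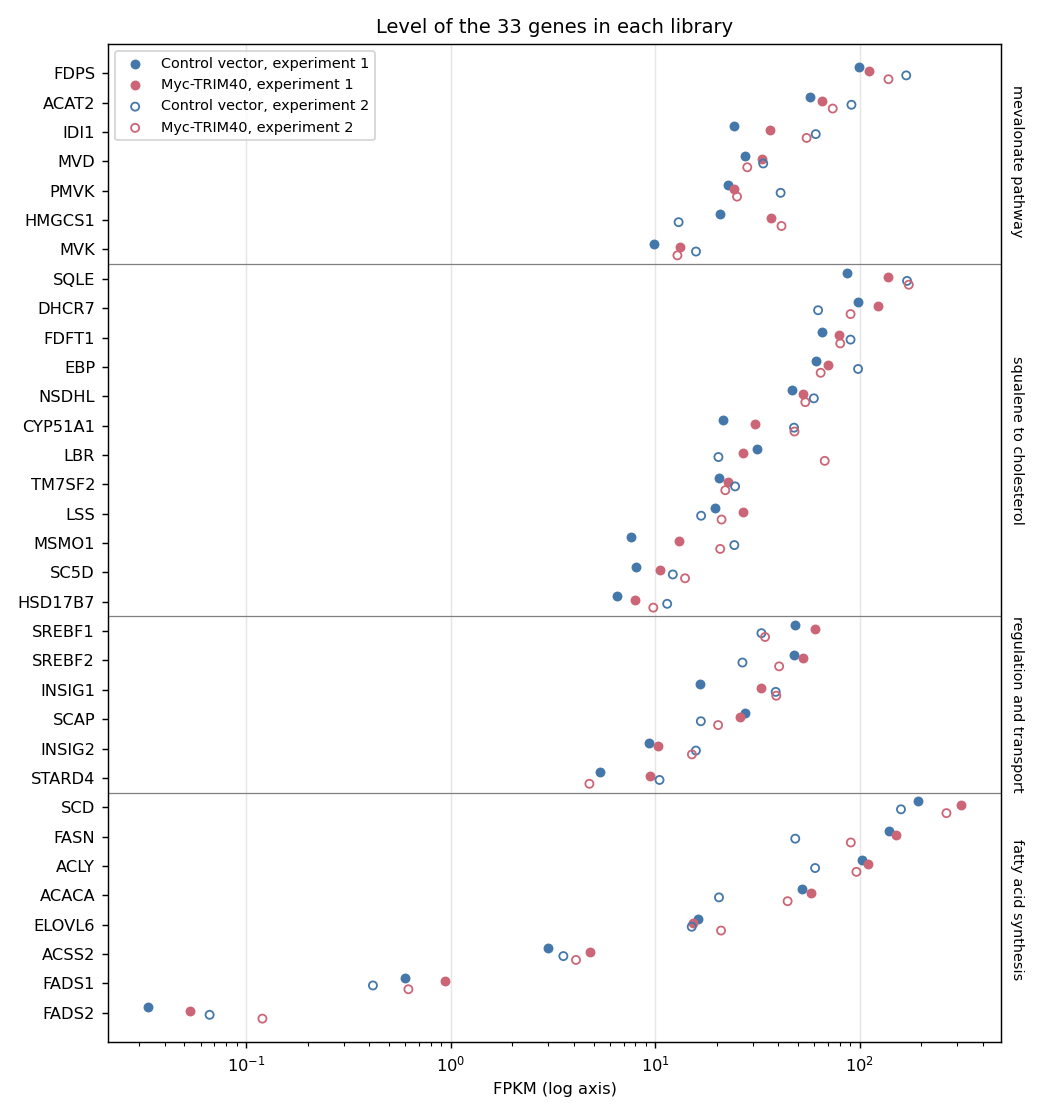
Level of each of the 33 genes in each of the 4 libraries, in FPKM on a log axis, grouped by role and ordered by mean level; filled points are experiment 1, open points experiment 2, blue control vector and red Myc-TRIM40. For HMGCS1, SCD, LSS, ACSS2 and FADS1 both red points lie above both blue points, and for INSIG1 the blue point of experiment 1 lies apart from the other 3.

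In experiment 1 most of the genes were slightly higher with Myc-TRIM40, and in experiment 2 they were split. On log2(FPKM + 1), the median ratio of Myc-TRIM40 to control over the 33 genes was 0.26 in experiment 1, with 30 above 0, and 0.03 in experiment 2, with 19 above 0. Over genes with a mean of at least 1 FPKM the medians were 0.01 and 0.10. With the length trend taken out, the medians over the 33 genes were 0.25 and -0.09, with 30 and 14 above 0. On counts per TMM-scaled library with no scaling by length (CPM) the medians were 0.25 and -0.10. On TPM, which is FPKM rescaled to 1 common sum, they were 0.31 and 0.24, while the median over genes with a mean of at least 1 FPKM moved to 0.04 and 0.33, so on that scale too the median of the 33 genes lay under that of expressed genes in experiment 2.

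A ratio of at least 1.5 on FPKM + 1 was reached by 6 genes upward and 0 downward in experiment 1, and by 6 upward and 3 downward in experiment 2. Of all 27685 genes, 1.66% were past this ratio upward and 0.466% downward in experiment 1, and 4.71% and 1.59% in experiment 2. Among expressed genes (mean of at least 1 FPKM) the shares were 3.01% and 0.822% in experiment 1 and 10.7% and 3.42% in experiment 2. HMGCS1 and SCD were past it upward in both experiments, as were 0.26% of all genes and 0.568% of expressed genes, and none of the 33 was past it downward in both. With the length trend taken out, the counts were 6 upward and 0 downward in experiment 1, where 3.03% and 0.72% of expressed genes passed, and 2 upward and 1 downward in experiment 2, where 3.78% and 1.75% passed. On TPM + 1, 8 genes were past it upward and 0 downward in experiment 1, and 9 and 1 in experiment 2. Of the 11801 expressed genes, 490 were past it upward and 114 downward on that scale in experiment 1, and 3170 and 114 in experiment 2. Since the genes were selected on this contrast, nothing is read from these shares.

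Over both experiments together, 16 of the 33 genes were higher with Myc-TRIM40 in both, 0 were lower in both and 17 went opposite ways. Among expressed genes the shares were 34.6%, 20.8% and 44.6% in the same order. With the length trend taken out, 12 were higher in both, 1 was lower in both and 20 went opposite ways, and the shares among expressed genes were 26.2%, 26.7% and 47.1%. The Spearman correlation between the ratios of experiment 1 and experiment 2 was -0.17 across the 33 genes. In FPKM, both Myc-TRIM40 libraries lay above both controls for 5 of the 33 genes (HMGCS1, SCD, LSS, ACSS2 and FADS1) and below both for 0, and they lay above for 10.1% of all genes and 12.8% of expressed genes.

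**Figure D2:**
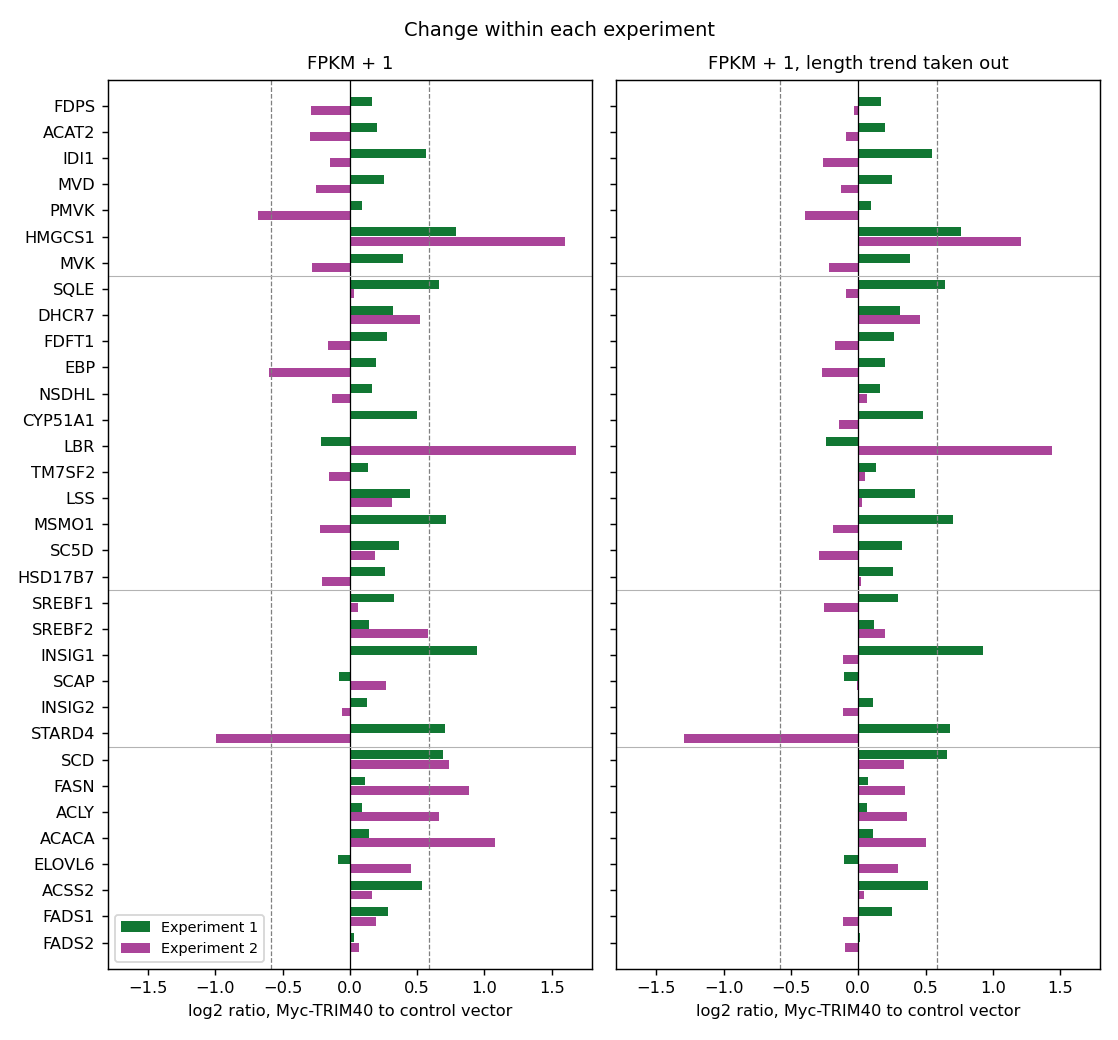
Log2 ratio of Myc-TRIM40 to control for each of the 33 genes in experiment 1 (green) and experiment 2 (purple), on FPKM + 1 at left and after removal of the length trend at right; bars start at 0 and dashed lines mark a 1.5-fold ratio. Green bars point right for 30 of 33 genes in both panels, and purple bars for 19 genes at left and 14 at right.

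The first steps of the sterol pathway, from acetyl-CoA to farnesyl diphosphate, were represented by 7 genes. All 7 were higher with Myc-TRIM40 in experiment 1, with a median log2 ratio of 0.26, and 1 of 7 was higher in experiment 2, with a median of -0.28 (-0.13 with the length trend taken out, -0.41 on CPM and -0.05 on TPM). The exception was HMGCS1, the synthase that makes HMG-CoA.

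HMGCS1 was at 20.8 FPKM in control and 36.7 FPKM in Myc-TRIM40 cells in experiment 1, and at 13.0 and 41.4 FPKM in experiment 2, from 7047, 12468, 4869 and 14390 reads. Both Myc-TRIM40 libraries were above both controls. The log2 ratio was 0.79 in experiment 1 and 1.60 in experiment 2, and 1.21 in experiment 2 with the length trend taken out. The 8 transcripts of the gene were 5265 to 5569 bases long, so a shift among them hardly changes FPKM. The 5391-base transcript took 2648, 4029, 863 and 3820 of the reads in the same order, and the 5450-base transcript 2484, 3984, 821 and 3672, so both of these were higher with Myc-TRIM40 in each experiment. HMGCS1 has its position at chr5:43287572-43313614 in hg19, the build named in the submitters' processing notes.

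IDI1, which interconverts the isoprene building blocks, was at 24.4 and 36.5 FPKM in experiment 1 and 60.9 and 54.9 FPKM in experiment 2, for control and Myc-TRIM40. Its log2 ratio was 0.56 in experiment 1, just under 1.5-fold, and -0.15 in experiment 2 (-0.26 with the length trend taken out). Here the experiment separated the libraries more than the condition did.

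PMVK, the kinase that phosphorylates mevalonate phosphate, was at 22.7 and 24.3 FPKM in experiment 1 and 41.0 and 25.1 FPKM in experiment 2. The control library of experiment 2 was high and the other 3 lay close together, which gave log2 ratios of 0.09 and -0.69 (-0.40 with the length trend taken out). At 1294 bases PMVK was among the shortest of the 33 genes.

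The remaining 4 genes were also higher with Myc-TRIM40 in experiment 1 and lower in experiment 2. MVK, the mevalonate kinase, had log2 ratios of 0.39 and -0.28, and MVD, the decarboxylase, 0.26 and -0.25. ACAT2, the cytosolic thiolase, had 0.20 and -0.30 and FDPS, which makes farnesyl diphosphate, 0.17 and -0.29. With the length trend taken out, the second values were -0.22 for MVK, -0.13 for MVD, -0.09 for ACAT2 and -0.03 for FDPS. FDPS was the highest of the 7, at 98.8 and 111 FPKM in experiment 1 and 169 and 138 FPKM in experiment 2. ACAT2, FDPS and IDI1 overlap other genes with reads, and the counting of strand is not stated in the sources used here.

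From squalene to cholesterol, 11 of 12 genes were higher with Myc-TRIM40 in experiment 1, with a median log2 ratio of 0.30, and 6 of 12 in experiment 2, with a median of -0.06. That median was -0.04 with the length trend taken out, -0.19 on CPM and 0.17 on TPM, so its direction depended on the scaling. The exception in experiment 1 was LBR.

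SQLE, squalene epoxidase and a rate-limiting enzyme of the pathway, was at 86.9 and 138 FPKM in experiment 1 and 170 and 173 FPKM in experiment 2. The control of experiment 1 was low and both libraries of experiment 2 lay close together. The log2 ratios were 0.66 and 0.03. MSMO1, the methylsterol monooxygenase, was at 7.61 and 13.1 FPKM in experiment 1 and 24.4 and 20.8 FPKM in experiment 2. Its log2 ratios were 0.71 and -0.22. With the length trend taken out, the second values were -0.09 for SQLE and -0.19 for MSMO1.

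CYP51A1, the lanosterol demethylase, was at 21.4 and 30.8 FPKM in experiment 1 and 47.7 and 47.9 FPKM in experiment 2. Its log2 ratios were 0.50 and 0.01, the second -0.14 with the length trend taken out. SQLE, MSMO1 and CYP51A1 thus shared an order, with the control of experiment 1 lowest and both libraries of experiment 2 above both of experiment 1. CYP51A1 overlaps its antisense RNA, CYP51A1-AS1.

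LBR, a sterol reductase that also anchors chromatin at the inner nuclear membrane, was at 31.5 and 27.0 FPKM in experiment 1 and 20.4 and 67.4 FPKM in experiment 2. Its log2 ratios were -0.22 and 1.68, and the second was 1.44 with the length trend taken out. The Myc-TRIM40 library of experiment 2 stood above the other 3. Both transcripts of LBR had more reads there, with 4721, 4874, 3796 and 10448 reads on the 3823-base transcript and 2811, 1595, 1603 and 6070 on the 3813-base transcript. TM7SF2, the other enzyme with the same reductase activity, was at 20.5 and 22.6 FPKM in experiment 1 and 24.6 and 22.0 FPKM in experiment 2, with log2 ratios of 0.13 and -0.15.

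DHCR7, the reductase of the last step of cholesterol synthesis, was at 97.7 and 123 FPKM in experiment 1 and 62.5 and 90.1 FPKM in experiment 2. It was higher with Myc-TRIM40 within both experiments, by 0.32 and 0.52 on the log2 scale (0.31 and 0.46 with the length trend taken out), although the ranges of the conditions overlapped. LSS, the lanosterol synthase, also kept its direction, at 0.45 and 0.31 (0.42 and 0.03 with the trend taken out), as did SC5D, the desaturase that acts before DHCR7, at 0.36 and 0.18, whose second value turned to -0.29 with the trend taken out. SC5D is one of the longest genes here, at 6964 bases. Its reads moved between transcripts, since the 7019-base transcript took 356, 741, 3444 and 385 reads.

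EBP, the sterol isomerase, was at 61.0 and 69.7 FPKM in experiment 1 and 98.0 and 64.4 FPKM in experiment 2, with log2 ratios of 0.19 and -0.60. The second was just past 1.5-fold, and -0.27 with the length trend taken out. At 1157 bases EBP was the shortest of the 33 genes. FDFT1, squalene synthase, had log2 ratios of 0.28 and -0.16, NSDHL, a sterol dehydrogenase, 0.16 and -0.14, and HSD17B7, a ketosteroid reductase, 0.26 and -0.21. NSDHL and HSD17B7 turned to 0.07 and 0.02 in experiment 2 with the trend taken out, as TM7SF2 did to 0.05, while FDFT1 stayed at -0.17.

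The regulators and the sterol carrier STARD4 made a mixed group of 6. In experiment 1, 5 of 6 were higher with Myc-TRIM40, with a median log2 ratio of 0.23. In experiment 2, 4 of 6 were higher with a median of 0.03, and 1 of 6 with a median of -0.12 once the length trend was taken out (-0.06 on CPM and 0.27 on TPM). None of the 6 was past 1.5-fold in the same direction in both.

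INSIG1, which retains SCAP when sterols are plentiful and is itself an SREBP target, was at 16.6 and 32.8 FPKM in experiment 1 and 38.8 and 39.1 FPKM in experiment 2. The control of experiment 1 was the low library and the other 3 were close, which gave log2 ratios of 0.94, the highest of the 33 genes in experiment 1, and 0.01. INSIG2, its paralog, was at 9.36 and 10.3 FPKM in experiment 1 and 15.8 and 15.1 FPKM in experiment 2, with log2 ratios of 0.12 and -0.06. With the length trend taken out, the second values were -0.12 for INSIG1 and -0.11 for INSIG2.

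SREBF1 was at 48.0 and 60.4 FPKM in experiment 1 and 33.0 and 34.4 FPKM in experiment 2, with log2 ratios of 0.32 and 0.06 (-0.25 in experiment 2 with the length trend taken out). SREBF2 was at 47.9 and 53.0 FPKM in experiment 1 and 26.7 and 40.3 FPKM in experiment 2, with log2 ratios of 0.14 and 0.58. The second was just under 1.5-fold, and 0.20 with the trend taken out. SCAP was at 27.6 and 26.1 FPKM in experiment 1 and 16.7 and 20.3 FPKM in experiment 2, with log2 ratios of -0.08 and 0.27 (-0.01 with the trend taken out).

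All 4 libraries thus held RNA for both SREBPs and for SCAP, and each of the 3 genes was lower in both libraries of experiment 2 than in either of experiment 1. SREBF1, SREBF2 and SCAP had mean transcript lengths of 4474, 5269 and 4110 bases. Across expressed genes the ratio of experiment 2 to experiment 1 fell with length, with Spearman correlations of -0.55 between controls and -0.21 between Myc-TRIM40 libraries. The reads of SREBF1 moved between transcripts of 4911, 5001 and 4050 bases. The 4911-base transcript took 31.4%, 24.7%, 10.0% and 30.9% of its reads, low in the control of experiment 2, and the 4050-base transcript 53.1%, 59.4%, 57.3% and 38.2%. SREBF1 also overlaps RAI1 and MIR6777.

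STARD4, a cytosolic protein that carries cholesterol between membranes, was at 5.39 and 9.42 FPKM in experiment 1 and 10.5 and 4.77 FPKM in experiment 2. Its log2 ratios had opposite signs and were both past 1.5-fold, 0.71 and -0.99, and the second was -1.30 with the trend taken out. The control libraries and the Myc-TRIM40 libraries overlapped. Its reads were 1413, 2317, 3081 and 971, and its mean transcript length fell by 12.9% in experiment 2. There its 4686- and 4692-base transcripts fell from 1142 and 1078 reads to 176 and 178. The 1474- and 1468-base transcripts went from 57 and 36 reads to 118 and 46. Within an experiment the mean transcript length changed by more than 10% for only 1 other gene of the 33, FADS2, with 8 and 11 reads in experiment 1. STARD4 overlaps STARD4-AS1.

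Fatty acid synthesis was represented by 8 genes. In experiment 1, 7 of 8 were higher with Myc-TRIM40 with a median log2 ratio of 0.13, and in experiment 2 all 8 were, with a median of 0.56. With the length trend taken out the median in experiment 2 was 0.32, with 6 of 8 above 0, and it was 0.45 on CPM and 0.80 on TPM. The group had long transcripts, with a median of 4383 bases against 1857 for the mevalonate genes.

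SCD was at 192 and 311 FPKM in experiment 1 and 159 and 265 FPKM in experiment 2, from 65828, 106753, 60293 and 93023 reads. Both Myc-TRIM40 libraries lay above both controls. The log2 ratios were 0.69 and 0.73, the closest pair among the genes past 1.5-fold, and the second was 0.34, under 1.5-fold, with the length trend taken out. A single transcript of 5468 bases carried all reads of SCD, so no shift between transcripts enters these values. In hg19 it lies at chr10:102106772-102124588.

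FASN, the fatty acid synthase, was at 138 and 150 FPKM in experiment 1 and 48.4 and 90.3 FPKM in experiment 2. ACACA, the acetyl-CoA carboxylase that makes malonyl-CoA, was at 52.0 and 57.5 FPKM in experiment 1 and 20.5 and 44.4 FPKM in experiment 2. ACLY, which makes cytosolic acetyl-CoA from citrate, was at 102 and 109 FPKM in experiment 1 and 60.5 and 96.2 FPKM in experiment 2.

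In each of these 3 genes the control library of experiment 2 was the lowest and both libraries of experiment 1 were close together and highest. The log2 ratios of experiment 1 were 0.11 for FASN, 0.14 for ACACA and 0.09 for ACLY. Those of experiment 2 were 0.89, 1.08 and 0.66, and 0.35, 0.50 and 0.36 with the length trend taken out, so none of the 3 stayed past 1.5-fold. FASN and ACACA are, at 8458 and 9603 bases, the longest of the 33 genes. The 9556-base transcript of ACACA took 24606, 26024, 7569 and 22367 reads, and the 9737-base transcript 5931, 8021, 5668 and 4488 reads.

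ELOVL6, which lengthens saturated fatty acids, had log2 ratios of -0.09 and 0.45 from levels of 15.1 to 21.0 FPKM. ACSS2, which makes acetyl-CoA from acetate, had 0.54 and 0.16 from levels of 2.98 to 4.78 FPKM. With the length trend taken out, the second values were 0.30 for ELOVL6 and 0.04 for ACSS2. FADS1 was at 0.600 and 0.944 FPKM in experiment 1 and 0.417 and 0.622 FPKM in experiment 2, and FADS2 reached 0.120 FPKM at most. FADS1 and FADS2 overlap each other, so reads could be split between them.

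Transcript length ordered the genes in experiment 2 and not in experiment 1. Across the 33 genes the Spearman correlation of the log2 ratio with mean transcript length was 0.78 in experiment 2 and 0.09 in experiment 1, close to the 0.68 and 0.08 across expressed genes, and it was 0.33 in experiment 2 with the trend taken out. Of the 16 genes longer than their median of 3021 bases, 15 were above 0 in experiment 2, and of the other 17 genes 4 were. In experiment 1 the counts were 13 of 16 and 17 of 17. Of the 8 genes of up to 2000 bases, 0 were above 0 in experiment 2 and 8 in experiment 1. The part of RNA quality or library preparation in this trend was not tested.

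**Figure D3:**
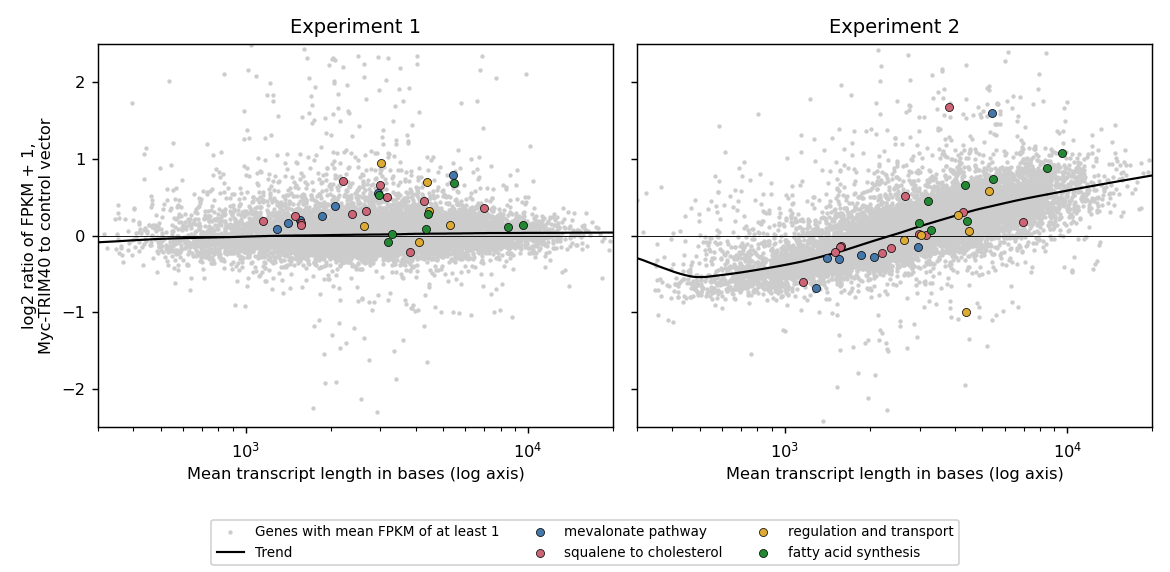
Log2 ratio of Myc-TRIM40 to control on FPKM + 1 against mean transcript length in bases (log axis), for experiment 1 at left and experiment 2 at right; grey points are expressed genes, the black line their trend and coloured points the 33 genes by role, and 329 and 307 grey genes lie outside the axes. The line is flat in experiment 1 and rises in experiment 2, where most coloured points follow it and HMGCS1 and LBR lie above it and STARD4 below it.

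Summed over each role, the TPM was higher with Myc-TRIM40 in both experiments, on a scale where the median expressed gene was itself 0.33 (log2) higher in experiment 2. The sum of the mevalonate genes was 570 and 716 TPM in experiment 1 and 768 and 798 TPM in experiment 2, and without HMGCS1, a sum added after seeing the data, the other 6 came to 525 and 634 TPM and 744 and 709 TPM, lower with Myc-TRIM40 in experiment 2. From squalene to cholesterol it was 1033 and 1343 TPM in experiment 1 and 1155 and 1418 TPM in experiment 2. Without LBR it was 964 and 1282 TPM, and 1118 and 1274 TPM. For fatty acid synthesis it was 1104 and 1449 TPM in experiment 1 and 556 and 1112 TPM in experiment 2. Without SCD the other 7 came to 683 and 753 TPM, and to 269 and 547 TPM. The sums without LBR and without SCD were also added after seeing the data. No sum was adjusted for the length trend of experiment 2, and the genes of fatty acid synthesis had a median length of 4383 bases.

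The comparison of experiment 2 with experiment 1 was not used to choose the genes, and it asked how far their levels vary between experiments. It was tested with edgeR's quasi-likelihood test over all 4 libraries, with the condition as a second term. None of the 33 genes passed an adjusted p of 0.05 (0 of 33), against 79 of 14868 genes (0.531%). At an unadjusted p under 0.05 the test had 15 of the 33 genes and 28.9% of all genes tested. DESeq2 called 8 of the 32 genes to which it gave an adjusted p, with 6 higher and 2 lower in experiment 2, against 15.4% of 12562 genes, and limma, upper-quartile normalization, the fit without filter and the fit without the condition term called 0.

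FASN was lower in experiment 2, with a log2 difference of -1.08 ± 0.22 (standard error, n = 2 libraries per experiment) and an edgeR adjusted p of 0.0536. MSMO1 was higher by 1.23 ± 0.29 (edgeR adjusted p = 0.0568), CYP51A1 by 0.94 ± 0.24 (edgeR adjusted p = 0.0614) and IDI1 by 0.99 ± 0.26 (edgeR adjusted p = 0.0636). ACACA differed by -0.81 ± 0.25 (edgeR adjusted p = 0.0846) and INSIG2 by 0.70 ± 0.22 (edgeR adjusted p = 0.0849). For SQLE the difference was 0.69 ± 0.24 and for INSIG1 0.78 ± 0.29, with edgeR adjusted p-values of 0.103 and 0.121. These 8 are the genes that DESeq2 called.

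The differences were larger between the control libraries, 1 of which is the library that stood apart, than between the Myc-TRIM40 libraries. On log2(FPKM + 1), experiment 2 minus experiment 1 was 1.56 for MSMO1 between controls and 0.62 between Myc-TRIM40 libraries, 1.12 and 0.62 for CYP51A1, and 1.29 and 0.58 for IDI1. INSIG1 had 1.18 and 0.25 and SQLE 0.96 and 0.33. FASN had -1.50 and -0.72 and ACACA -1.30 and -0.37. In each of these 7 genes both pairs of libraries differed in the same direction.

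By role, 10 of the 12 genes from squalene to cholesterol and 6 of the 7 mevalonate genes had a fitted difference above 0, against 2 of 6 regulators and 3 of 8 genes of fatty acid synthesis. The medians of the fitted differences were 0.36, 0.47, -0.31 and -0.32 in the same order, beside -0.03 over all 14868 genes. Both pairs of libraries were higher in experiment 2 for 14 of the 33 genes and lower for 10, and 9 went opposite ways, LBR and STARD4 with the widest gaps. These differences also followed transcript length, with Spearman correlations across the 33 genes of -0.60 between controls and -0.36 between Myc-TRIM40 libraries, and -0.55 and -0.21 across expressed genes.

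**Figure D4:**
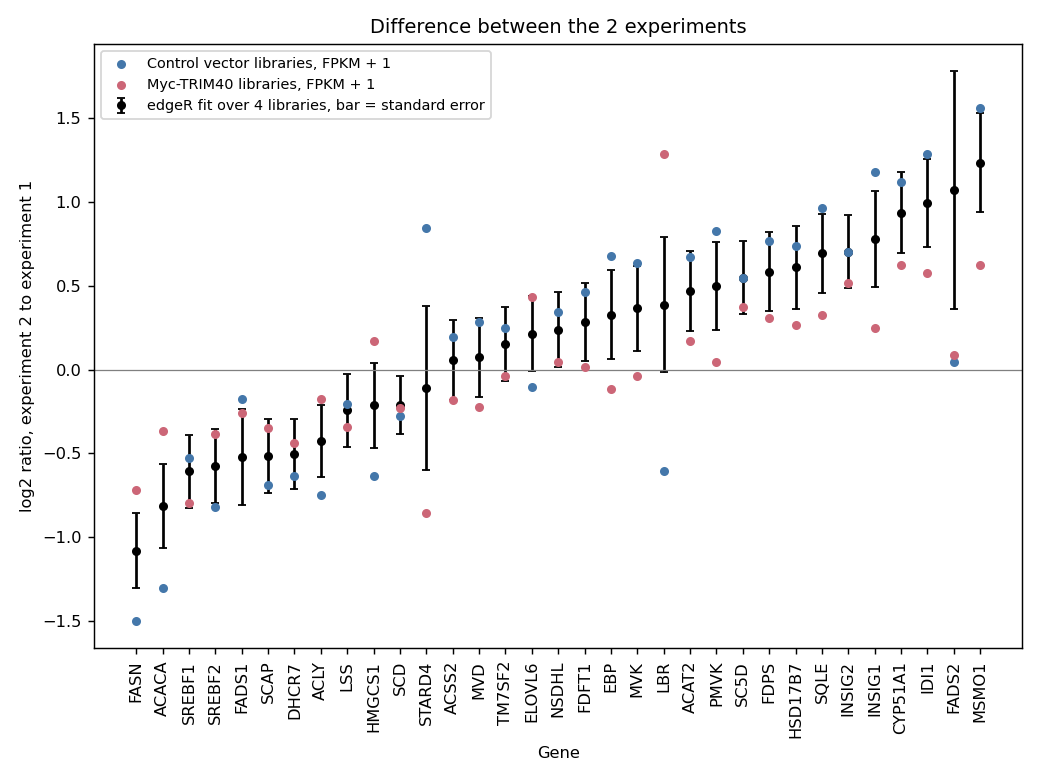
Log2 ratio of experiment 2 to experiment 1 for each of the 33 genes, ordered by the edgeR estimate (black, with its standard error); blue points are the ratio between the control libraries and red points between the Myc-TRIM40 libraries, on FPKM + 1. FASN lies lowest at -1.08 and MSMO1 highest at 1.23, and for most genes the blue point lies farther from 0 than the red point.

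A further 54 genes of the same pathways were listed in 3 lists, of which 42 had a mean of at least 1 FPKM and 5 had no reads. Past 1.5-fold with Myc-TRIM40 were 3 upward and 1 downward in experiment 1 and 3 upward and 2 downward in experiment 2, and 1 gene was upward in both. This was NPC1, which exports cholesterol from lysosomes, at 8.23 and 13.4 FPKM in experiment 1 and 5.07 and 8.70 FPKM in experiment 2. Its log2 ratios were 0.64 and 0.68, the second 0.33 with the length trend taken out. NPC1 overlaps C18orf8.

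Of the 15 further genes of sterol synthesis and uptake, 1 was past 1.5-fold upward in each experiment, NPC1. The most abundant were SCARB1 (a lipoprotein receptor), TMEM97 and NPC2 (the lysosomal partner of NPC1), with log2 ratios of 0.14, -0.08 and 0.11 in experiment 1 and 0.03, 0.06 and -0.39 in experiment 2. Of the 15 genes of SREBP control, 0 passed in experiment 1 and 2 upward in experiment 2. The most abundant of these were AUP1, MBTPS1 (the first protease that cuts SREBPs) and RNF139, with log2 ratios of 0.01, -0.01 and 0.04 in experiment 1 and -0.13, 0.36 and 0.25 in experiment 2.

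Of the 24 genes of fatty acid and lipid synthesis, 2 were past 1.5-fold upward and 1 downward in experiment 1, and 0 upward and 2 downward in experiment 2. The most abundant were SLC25A1 (the mitochondrial citrate carrier), TECR and ELOVL1, with log2 ratios of -0.05, -0.07 and 0.18 in experiment 1 and -0.19, -0.15 and 0.06 in experiment 2. With Myc-TRIM40 against control, edgeR called 0 of the 48 further genes it tested, against 0.0605% of 14868 genes, and 6 of the 48 had an unadjusted p under 0.05, against 4.54% of all genes. DESeq2, which called 0.363% of all genes, and limma also called 0 of the 48. The lists were chosen with earlier results of these data known, so nothing is read from these counts. Between experiments edgeR called 1 of the 48, against 0.531% of all genes. This was ABCA1, a cholesterol exporter with 567, 836, 156 and 285 reads, which is named after its values were seen. Its mean was only 0.692 FPKM and its mean transcript length 10502 bases, and differences between the experiments followed transcript length. DESeq2 called 5 of the 48 between experiments, ABCA1 among them, against 15.4% of 12562 genes. The call of ABCA1 was lost with upper-quartile scaling, with no filter, without the condition term and in limma.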

How the data were processed

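RNA-seq libraries of HT-29 cells (2 control, 2 Myc-TRIM40) were prepared by the authors with the TruSeq Stranded mRNA LT kit. The authors deposited, per transcript, estimated counts of reads given as unnormalized whole numbers, FPKM and transcript lengths in bases, and for experiment 2 also TPM. The submitters' processing notes name HISAT2 2.1.0, StringTie 1.3.4d and hg19. How whole counts were obtained, and whether strand was used, is not given in the sources used here.

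The 63714 transcripts were summed to 27685 genes, of which 6685 overlap another gene with reads (10 of the 33). TPM of experiment 1 was computed from the deposited FPKM. Ratios are (FPKM + 1) of Myc-TRIM40 over control within an experiment, with a pseudocount of 1, which understates changes of low genes. The length trend is a lowess (fraction 0.3) of the log2 ratio on log2 mean transcript length over genes with a mean of at least 1 FPKM. Counts were tested with edgeR 4.0.16 in R 4.3.3 (glmQLFTest, TMM, filterByExpr, Benjamini-Hochberg over 14868 genes) with experiment and condition as terms and 1 residual degree of freedom. Alternatives were DESeq2 1.42.0, limma 3.58.1 on log2(FPKM + 1), upper-quartile scaling, no filter, no block, another pseudocount, unit or threshold, centring, and overlapping genes left out. Same-numbered libraries share an experiment, as the study and the files pair them, and deviated together (correlation 0.45 across genes). The labels do not say how cultures were separated, so p-values measure the spread between these libraries. Totals per library were between 60954602 and 67424698 reads, and the number of libraries, 2 per condition, limits precision. An exact permutation test of 2 against 2 libraries cannot give a p under 0.333, so none was run.

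On simulated counts (14694 genes), edgeR found 98 of 99 genes changed 4-fold and 31 of 92 changed 2-fold between conditions, and 112 of 115 and 20 of 83 between experiments. It also called 9 unchanged genes between conditions and 7 between experiments. The simulation gave all genes the same dispersion and had no trend on transcript length, so these rates may not hold for the real libraries.

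Members, lists and tests were chosen with earlier results of these data known. Named were all 33 genes, TRIM40 and, of the further lists, genes past 1.5-fold the same way in both experiments, genes called and past 1.5-fold, and the 3 most abundant per list. Some genes of these pathways are not reported here.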

Additional observations from a re-analysis of the deposited data

How the results depend on the processing

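With 1 library per condition in an experiment, the fits have no value without either experiment. Over the alternatives tried, 83 of 119 values stayed within their spread or within 1.5 times the count. Among them was the median of experiment 2 on every alternative but TPM. That median nevertheless turned from 0.03 to -0.10 on CPM, -0.08 when centred and -0.09 with the length trend taken out. With overlapping genes left out it was 0.16. In the paired design the experiment is the block. For Myc-TRIM40 against control, edgeR called 0 of the 33 genes and 9 of all genes (0.0605%). With no replicate block the calls were 0 and 0, and DESeq2 called 1 (HMGCS1) and 54 (0.363%). Since this contrast chose the 33 genes, these calls are no test of them, and nothing is read from them. Between experiments edgeR called 0 of the 33 and 79 genes, and DESeq2 8 and 1939. The 79 became 0 without the condition term, 0 with no filter, 3 in limma and 15 with upper-quartile scaling. At 2-fold, 0 genes were higher in experiment 1, 3 higher and 0 lower in experiment 2 and 0 higher in both. With the length trend taken out, 2 were higher and 1 lower in experiment 2 and 1, HMGCS1, was higher in both. On TPM, 1 was lower in experiment 2 and the median there was 0.24. A length change of over 20% was seen in 0 genes. Each experiment by itself gave 6 genes higher, and from 0 to 3 lower, where both together gave 2 and 0.

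Of the 54 further genes, a pseudocount of 0.1 put 7 higher in experiment 1, 7 higher in experiment 2 and 3 higher in both. CPM gave 5 higher in experiment 1 and 1 lower in experiment 2. TPM gave 8 higher and 1 lower in experiment 2 and 2 higher in both. Centring gave 1 higher in experiment 2 and 0 in both, and the length trend taken out gave 0 and 0. At 2-fold no further gene passed, 0 in each direction. Each experiment by itself gave 3 higher and from 1 to 2 lower. The causes of these changes were not tested.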
